A study of Homo sapiens with 6 samples.

Results

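The nuclear genes of respiratory complex I were compared between sorted fractions of HCT116, an established line of human colorectal carcinoma cells. The members were all probe sets with a single gene symbol that starts with NDUF, and where a gene had several, the brightest on average over the 6 arrays was kept. This gave 41 of the 18404 genes with a single-symbol probe set: 34 subunits (NDUFA, NDUFB, NDUFC, NDUFS and NDUFV) and 7 assembly factors (NDUFAF). The rule used no difference between the fractions, but the family was chosen when genes of oxidative phosphorylation were already known to be higher in CD133+ in these data, so its direction is not independent evidence. The groups were HCT116 cells positive for CD133 (CD133+) and HCT116 cells negative for it (CD133-), with 3 arrays each, numbered as repetitions 1, 2 and 3 in both. CD133 is a glycoprotein of the cell surface that serves as a marker in sorting of colon cancer cells. The labels name no treatment and no genetic change, all arrays come from this 1 cell line, and nothing says whether the repetitions were grown or sorted apart. The p-values therefore reflect the spread among these arrays alone, which may be technical.

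Complex I is the NADH:ubiquinone oxidoreductase of the mitochondrial inner membrane and the entry point of most electrons into the respiratory chain. It has the shape of an L. The matrix arm takes electrons from NADH through a flavin and a chain of iron-sulphur clusters to ubiquinone, and the membrane arm pumps protons. Core subunits do the catalysis, accessory subunits surround and stabilise them, and assembly factors build intermediates without staying in the finished enzyme. Colorectal carcinoma cells use both glycolysis and respiration.

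Signals are log2 values from Robust Multichip Average (RMA), differences are CD133+ minus CD133- on that log2 scale, and a difference is said to pass where the p-value of limma, adjusted by Benjamini-Hochberg over all 28230 probe sets, lies under 0.05. PROM1, which encodes CD133, measured 7.59, 7.36 and 7.09 in CD133+ and 5.30, 4.46 and 3.97 in CD133- repetitions 1, 2 and 3 (a 6.82-fold difference; limma adjusted p = 0.142 with group only and 0.0120 with repetition as a block). No CD133- array reached the level of a CD133+ array. Of 8 epithelial markers, EPCAM, KRT8, KRT18 and KRT19 were at 10.7 or above on all arrays, whereas VIL1, a villin of brush borders, lay at 4.32 to 4.66. CDH1, CLDN7 and CDX2 lay between 6.92 and 9.45. The fractions split this list, with 5 markers above 0 and 3 below, from -0.48 (KRT18) to 0.48 (CLDN7), and 0 passed in either fit. The probe set kept for KRT18 (8154725) is numbered beside that of TEK (8154692, chr9). For EPCAM it is 8098439, near that of PPARGC1A (8099633, chr4). KRT18 and EPCAM lie on chr12 and chr2, so these values may be those of copies, which was not tested. Array medians lay between 5.44 and 5.60. Across probe sets, arrays correlated within a repetition with r = 0.992 to 0.995 and within a fraction with 0.984 to 0.992, and the spread between repetitions is therefore given beside each group of members. Leukocyte markers (5 measured) lay between 2.43 and 7.43 in CD133+ and between 2.28 and 7.20 in CD133-, and fibroblast markers (6) between 2.17 and 7.71 in CD133+ and between 2.19 and 7.96 in CD133-. Endothelial markers (6) lay between 3.47 and 6.31 in CD133+ and between 3.51 and 6.31 in CD133-. The part of other cells in the results was not tested. In these lists PTPRC, DCN and LUM were below 3 on every array, whereas COL1A1, a fibroblast collagen, lay at 6.84 to 7.71 in CD133+ and 6.95 to 7.96 in CD133-, and CD68, a macrophage marker, at 6.73 to 7.43 in CD133+ and 6.36 to 7.20 in CD133-. Part of any difference in bulk RNA can come from fewer cells of a kind or from less RNA per cell, which cannot be told apart here.

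Complex I transcripts were slightly higher in CD133+ cells across most of the family, and no single member passed. The mean difference was above 0 for 36 of 41 members, namely 30 of 34 subunits and 6 of 7 assembly factors, against 47.9% of all genes. The median difference was 0.15 over subunits (a fold of 1.11) and 0.23 over assembly factors (1.17), against -0.0064 over all genes. Subunits ranged from -0.069 (NDUFV3) to 0.38 (NDUFA9), with the middle of the distribution between 0.079 and 0.23 (quartiles). Assembly factors ranged from -0.13 (NDUFAF6) to 0.29 (NDUFAF1). The count of members above 0 was 27 of 41 without CD133+ repetition 2 and 31 of 41 without CD133- repetition 3.

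With group as the only term, 0 of 41 members passed (limma adjusted p = 1 for all of them), where 0.00354% of all probe sets passed, and 0 members had an unadjusted limma p under 0.05, where 3.45% of all probe sets had one. By gene, 1.58% of all genes had such a p and were higher and 1.89% were lower. With repetition as a block, 0 members passed as well (lowest limma adjusted p = 0.234, for NDUFB6), where 0.298% of probe sets passed. In that fit 11.3% of probe sets and 12 members had an unadjusted p under 0.05, all 12 members higher in CD133+ (8 subunits and 4 assembly factors), where 5.9% of all genes had one and were higher, and 0 members were lower, where 5.73% of genes were lower. The block fit changed no call on a member but brought the standard errors from between 0.10 and 0.32 to between 0.079 and 0.13. For any single gene, 3 arrays a side leave an exact permutation test (two-sided) that ignores the repetition numbers with a smallest p of 0.1. Swapping only within repetitions would allow fewer arrangements, so its smallest p would be larger.

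**Figure D1:**
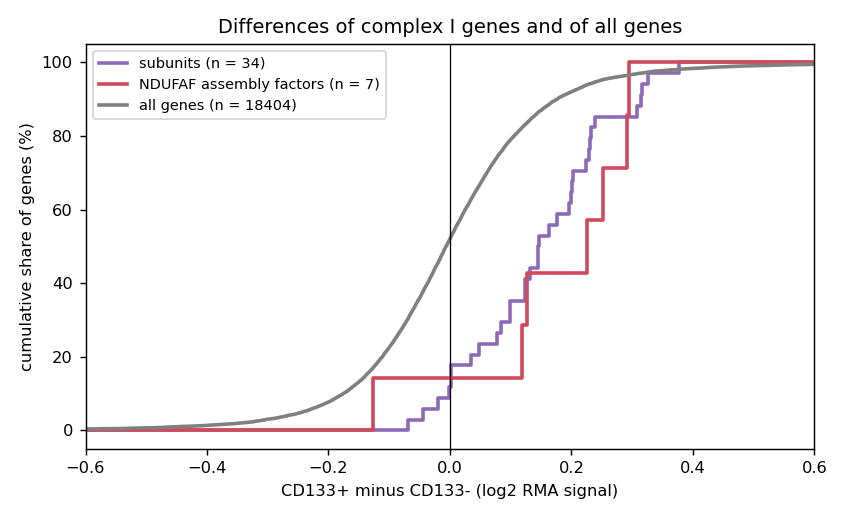
Cumulative share of genes (vertical axis, percent) by their difference CD133+ minus CD133- (horizontal axis, log2 RMA signal; values beyond 0.6 on either side are not drawn) for the 34 subunits, the 7 NDUFAF assembly factors and all 18404 genes. Over most of their range the curves of subunits and assembly factors lie to the right of the curve of all genes, with medians of 0.15 and 0.23 against -0.0064, and they end at 0.38 and 0.29.

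The differences were also set beside those of genes in the same range of signal. Of the subunits, 26 had a mean signal between 8 and 10. Their median difference was 0.15 with 25 of 26 above 0, beside a median of 0.021 with 56.7% above 0 for the 2916 genes in that range. The other 8 subunits lay between 6 and 8, where their median was 0.13 with 5 of 8 above 0, beside 0.0076 and 52.4% for 6484 genes.

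Within repetitions the subunit median was 0.071, 0.13 and 0.18 in repetitions 1, 2 and 3, with 27, 32 and 31 of 34 subunits higher in CD133+. For assembly factors it was 0.25, 0.085 and 0.25, with 6, 5 and 6 of 7 higher. The medians of all genes were -0.012, 0.015 and -0.016. The difference was above 0 within all 3 repetitions for 29 of 41 members, 24 of them subunits, where 17.7% of all genes were so. It was below 0 within all 3 repetitions for 1 member, NDUFAF6, where 18.5% of genes were so. The groups did not overlap for 5 members, all higher in CD133+ (NDUFS3, NDUFA7, NDUFA3, NDUFB5 and NDUFB9), where 3.43% of genes had CD133+ above CD133- on all arrays. No member had CD133+ below CD133- on all arrays, where 4.52% of genes did.

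**Figure D2:**
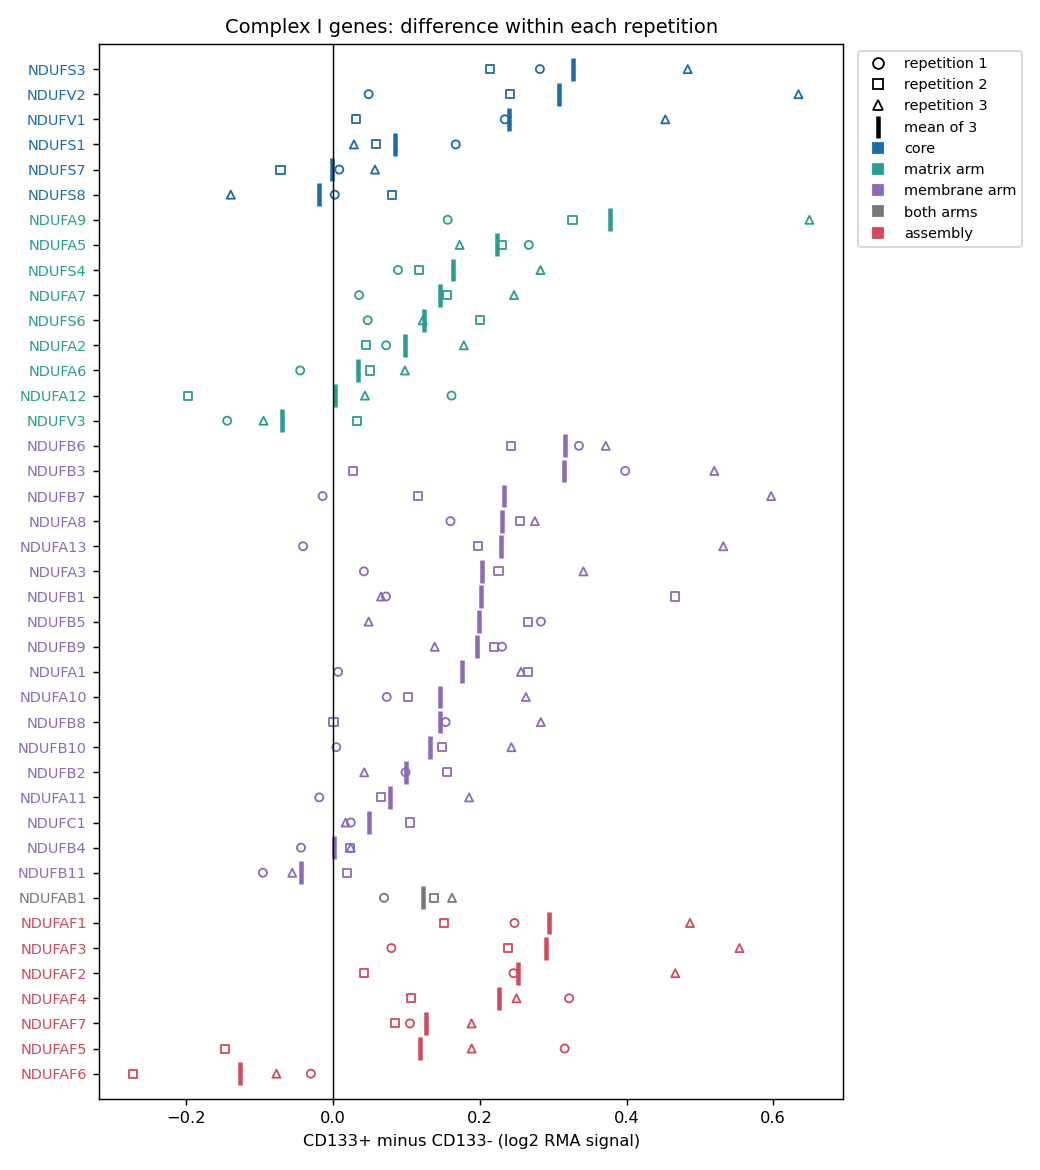
Difference CD133+ minus CD133- (horizontal axis, log2 RMA signal) of each of the 41 members (rows), coloured by role. Open circles, squares and triangles are repetitions 1, 2 and 3, and the thick tick is their mean. Most symbols lie right of 0, and NDUFAF6 lies left of 0 in all 3 repetitions. The symbols of NDUFS7, NDUFS8, NDUFA6, NDUFA11, NDUFA12, NDUFA13, NDUFV3, NDUFB4, NDUFB7, NDUFB11 and NDUFAF5 stand on both sides of 0.

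Promoter sequence is shown for 3 members to set a subunit with a difference of 0.33 that did not pass (NDUFS3) beside subunits with a difference near 0 (NDUFB4 and NDUFS7). They were chosen after their values were seen, because their windows hold matches to factors known to act at respiratory chain genes. Each line gives the bases just before the RefSeq transcription start on the plus strand of GRCh38.p14, namely chr11:47578899-47579073 for NDUFS3, chr3:120596161-120596335 for NDUFB4 and chr19:1383732-1383906 for NDUFS7, with motif matches in capitals.
NDUFS3: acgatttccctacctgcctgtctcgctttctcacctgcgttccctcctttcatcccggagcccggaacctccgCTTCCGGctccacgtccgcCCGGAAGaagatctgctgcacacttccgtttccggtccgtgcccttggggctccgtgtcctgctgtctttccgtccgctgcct
NDUFB4: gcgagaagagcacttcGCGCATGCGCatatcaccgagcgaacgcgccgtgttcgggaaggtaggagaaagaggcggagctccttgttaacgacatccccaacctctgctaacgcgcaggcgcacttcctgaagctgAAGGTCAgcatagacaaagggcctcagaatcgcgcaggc
NDUFS7: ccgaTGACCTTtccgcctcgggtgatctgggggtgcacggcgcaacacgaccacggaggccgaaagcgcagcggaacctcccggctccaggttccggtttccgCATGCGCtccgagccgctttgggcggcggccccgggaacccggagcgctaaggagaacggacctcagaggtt
The capitals mark ETS matches (CCGGAAG or its reverse complement) in NDUFS3, whose first bases lie at -102 and -83 relative to the start. In NDUFB4 they mark a palindrome that matches the NRF1 motif (GCGCATG) on both strands and an ERR match (AAGGTCA). In NDUFS7 they mark an ERR match and an NRF1 match, both on the minus strand. Matches of different motifs did not overlap in these windows. The printed windows do not stand for all members with these motifs. NRF1 matches were also in NDUFA8 (difference 0.23), an ERR match in NDUFA5 (0.22) and an ETS match in NDUFS1 (0.085). Medians by motif are given below.

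Over the 38 members with a promoter in the RefSeq table (250 bases before to 50 after the start, both strands), NRF1 matches were in 8 (21.1%), against 5.87% of 15843 protein-coding promoters and 4.67% of all 27305 promoters. The YY1 motif (AAGATGG) was in 7 (18.4%), against 6.40% of protein-coding and 6.06% of all promoters, and each of these 7 had a match that began 11 to 26 bases after the start. ERR matches were in 4 (10.5%, against 3.13% and 3.97%), and ETS matches were in 6 (15.8%, against 14.2% and 10.7%). The 19 members with any of these motifs had a median difference of 0.16, and the 19 with none had 0.13. By motif, the median with and without a match was 0.12 and 0.17 for NRF1, 0.23 and 0.14 for ETS, 0.15 and 0.15 for YY1, and 0.062 and 0.15 for ERR, so the direction differed between motifs. A match is a description of the letters and shows no binding. The genes of 3 of these factors were measured with differences of -0.092 for NRF1, 0.013 for YY1 and 0.18 for GABPA, an ETS factor, and ESRRA is given below. The probe set kept for GABPA (8133030) is numbered between those of TFB1M (8130438, chr6) and COL1A2 (8134263, chr7). GABPA lies on chr21, so its value may be that of a copy, which was not tested.

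Core subunits of the matrix arm fell into members with an offset and members near 0. The 6 measured had a median difference of 0.16, with 4 above 0, and 2 of them were higher with an unadjusted block p under 0.05, where 5.9% of all genes were so.

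NDUFS3, a core subunit next to the ubiquinone site (GRCh38 chr11:47579074-47584562, probe set 7939825), measured 9.74, 9.79 and 9.60 in CD133+ against 9.46, 9.58 and 9.12 in CD133- repetitions 1, 2 and 3. Every CD133+ array lay above every CD133- array. Means were 9.71 ± 0.099 and 9.39 ± 0.24 (SD, n = 3 each), a difference of 0.33 (SE 0.14 with group only and 0.090 with the block), or 1.25-fold. The limma unadjusted p was 0.0552 with group only and 0.00987 with the block (adjusted p = 0.260). The difference was 0.19 without CD133- repetition 3. NDUFV1, which binds NADH and the flavin, measured 9.35, 9.13 and 9.11 in CD133+ against 9.12, 9.10 and 8.65 in CD133-. Its groups overlapped slightly, and its difference of 0.24 was made up of 0.23, 0.031 and 0.45 within repetitions 1, 2 and 3. NDUFV2, an iron-sulphur subunit beside NDUFV1, measured 8.84, 9.20 and 8.99 in CD133+ against 8.79, 8.96 and 8.36 in CD133-, a difference of 0.31. Its second probe set gave 7.14, 7.49 and 6.88 in CD133+ against 6.93, 7.05 and 6.08 in CD133-, a difference of 0.48 (limma block adjusted p = 0.238). RefSeq lists a pseudogene of NDUFV2, and the level of the gene is uncertain where copies share sequence. NDUFV2 lies on chr18, and its second probe set (8020058) is numbered near that of TYMS (8019842, chr18). The kept probe set (8039068) is numbered between those of NDUFB7 (8034843, chr19) and NDUFAF7 (8041495, chr2), so its values may be those of the copy. Which probe set reads the gene rather than the copy was not tested.

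NDUFS7 and NDUFS8, which carry the iron-sulphur clusters nearest to ubiquinone, had differences near 0. NDUFS7 measured 7.30, 7.44 and 7.49 in CD133+ against 7.29, 7.51 and 7.43 in CD133-, and NDUFS8 measured 7.66, 7.73 and 7.59 in CD133+ against 7.66, 7.65 and 7.73 in CD133-. Arrays of the fractions were interleaved for both genes. The differences were -0.0021 (95% interval -0.20 to 0.19 with the block) and -0.019 (-0.23 to 0.19). NDUFS1, the large iron-sulphur subunit of the NADH-oxidising module, had 9.47, 9.54 and 8.93 in CD133+ and 9.30, 9.48 and 8.90 in CD133-, where repetition 3 was low in both fractions, and its difference was 0.085. The direction of NDUFS7 turned to 0.0022 when arrays were centred on their medians.

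**Figure D3:**
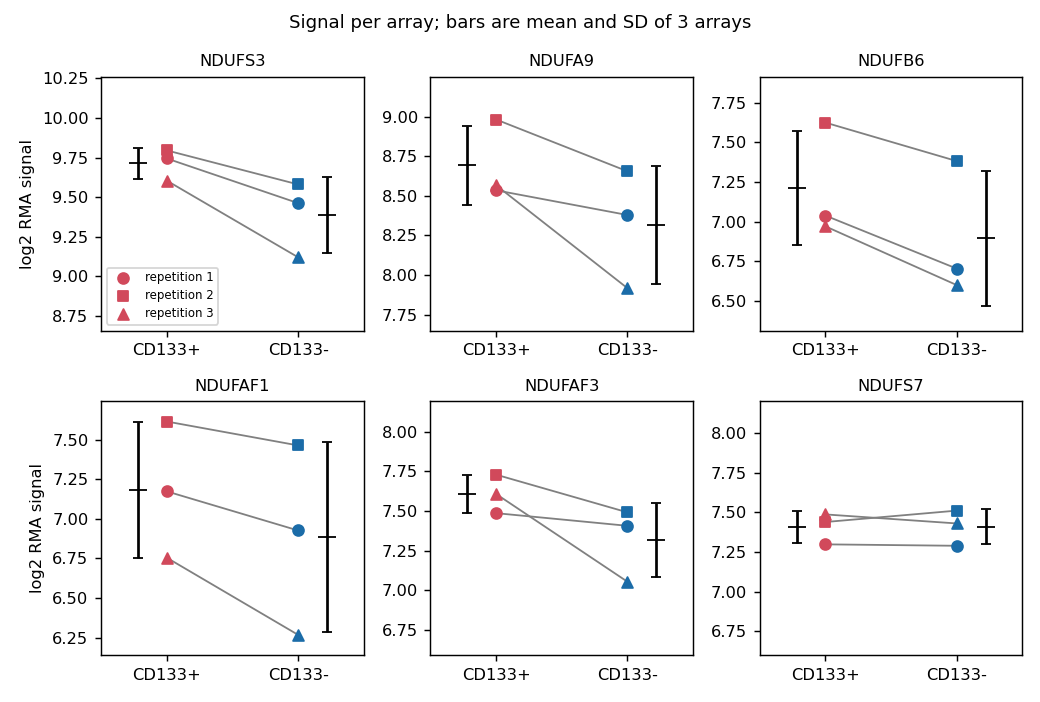
Log2 RMA signal (vertical axis, each panel spanning the same range) of 6 members in CD133+ and CD133- arrays, with lines joining arrays of the same repetition and bars at the sides for the mean and SD of 3 arrays. Lines slope down from CD133+ to CD133- in all repetitions of NDUFS3, NDUFA9, NDUFB6, NDUFAF1 and NDUFAF3, whereas those of NDUFS7 are nearly level and the ranges of the fractions overlap in every panel but that of NDUFS3.

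Accessory subunits of the matrix arm had a median difference of 0.12, with 8 of 9 above 0 and 2 higher with an unadjusted block p under 0.05 (5.9% of all genes). NDUFA9, which sits where the arms meet (chr12:4649114-4694317), had the largest mean difference of the members over all 6 arrays by the kept probe sets. With the probe sets of a gene averaged, NDUFV2 had 0.39 and NDUFA9 0.38. NDUFA9 measured 8.53, 8.98 and 8.57 in CD133+ against 8.38, 8.66 and 7.92 in CD133-. Repetition 3 of CD133- was far below the others, and the difference within repetitions was 0.16, 0.33 and 0.65. The mean difference of 0.38 (SE 0.21 with group only, 0.11 with the block; 1.30-fold) had a limma unadjusted p of 0.112 and 0.0138 in these fits (block adjusted p = 0.298). Without CD133- repetition 3 it was 0.18, less than the 0.19 of NDUFS3 in that setting, and without CD133+ repetition 2 it was 0.23. NDUFA5, an accessory subunit of the ubiquinone-reducing module, measured 8.63, 8.74 and 8.22 in CD133+ against 8.37, 8.51 and 8.05 in CD133-, overlapping groups with differences of 0.27, 0.23 and 0.17 within repetitions. RefSeq lists 12 pseudogenes of NDUFA5, so its level is uncertain. Pseudogenes are listed for 20 members, among them NDUFA3 (6), NDUFB3 (5), NDUFAF4 (4), NDUFB9 (3), NDUFB5 (2), NDUFAF2 (2), NDUFA9 (1) and NDUFAF1 (1). Their levels are uncertain in the same way.

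NDUFS4, an accessory subunit whose loss causes Leigh syndrome, had a difference of 0.16 and was higher in CD133+ in 3 of 3 repetitions (0.089, 0.12 and 0.28). Its second probe set was dim, at 3.06 to 3.55, with a difference of 0.11. NDUFA7 measured 8.28, 8.36 and 8.45 in CD133+ against 8.24, 8.20 and 8.20 in CD133-. Its groups did not overlap, with a difference of 0.15 and an SD of 0.086 in CD133+ and 0.023 in CD133- (n = 3 each). NDUFV3, a subunit of the NADH-oxidising module with tissue-dependent isoforms, went the other way at -0.069, with 7.27, 7.59 and 7.16 in CD133+ and 7.41, 7.56 and 7.26 in CD133-. The remaining members, NDUFS6 (0.12), NDUFA2 (0.098), NDUFA6 (0.035) and NDUFA12 (0.0024), lay between these values.

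The membrane arm accounts for the largest group of accessory subunits, and 17 of 18 measured had a difference above 0, with a median of 0.19 and 4 higher with an unadjusted block p under 0.05 (5.9% of all genes). NDUFS5 and NDUFC2 share their probe sets with other gene symbols and are not analysed here. NDUFB6, a subunit of the distal membrane arm (chr9:32553001-32573159), measured 7.04, 7.62 and 6.97 in CD133+ against 6.70, 7.38 and 6.60 in CD133-. The groups overlapped because repetition 2 was high in both fractions, yet the fractions differed by 0.34, 0.24 and 0.37 within repetitions. The difference of 0.32 had a standard error of 0.25 with group only and 0.081 with the block, and the limma block p of 0.00696 was the smallest among the members (adjusted p = 0.234). With group only the difference was 0.11 without CD133+ repetition 2, 0.17 without CD133- repetition 3 and 0.56 without CD133- repetition 2. NDUFB3, of the same region, lay between 6.34 and 6.85 in CD133+ against 5.82 and 6.83 in CD133-, overlapping groups, and it differed by 0.40 and 0.52 in repetitions 1 and 3 but by 0.027 in repetition 2.

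NDUFA8, which faces the intermembrane space and is held by disulphide bonds, had a difference of 0.23, spread evenly at 0.16, 0.25 and 0.27 over repetitions 1, 2 and 3. NDUFB7, of the same protein fold, had the same mean difference of 0.23 from an uneven set of -0.014, 0.12 and 0.60. NDUFB9 had 9.90, 9.99 and 9.81 in CD133+ against 9.67, 9.77 and 9.67 in CD133-, groups that did not overlap, with a difference of 0.20. The X-linked NDUFB11 was the 1 member of this arm below 0, at -0.044, with 8.67, 8.60 and 8.84 in CD133+ and 8.76, 8.58 and 8.90 in CD133-. NDUFB4, whose promoter is printed above, had 9.68, 9.64 and 9.60 in CD133+ and 9.72, 9.62 and 9.57 in CD133-, and the 95% interval of its difference ran from -0.19 to 0.19 with the block. RefSeq lists 12 pseudogenes of NDUFB4, so its level, and the difference set beside its promoter, are uncertain where copies share sequence. NDUFAB1, the mitochondrial acyl carrier protein that belongs to both arms, had a difference of 0.12 (0.069, 0.14 and 0.16 within repetitions 1, 2 and 3).

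Of the NDUFAF assembly factors measured, 6 of 7 had a difference above 0 and 5 of 7 were higher in CD133+ within all 3 repetitions. NDUFAF1, which helps to build the membrane arm, measured 7.17, 7.61 and 6.75 in CD133+ against 6.93, 7.46 and 6.27 in CD133-. Repetition 2 was high and repetition 3 low in both fractions, so the groups overlapped, and the difference of 0.29 had a standard error of 0.32 with group only and 0.096 with the block. With the block its limma adjusted p was 0.334. NDUFAF3 and NDUFAF4 bind each other on an early intermediate of the ubiquinone-reducing module. NDUFAF3 had 7.49, 7.73 and 7.61 in CD133+ against 7.41, 7.49 and 7.05 in CD133-, a difference of 0.29, and NDUFAF4 had 8.28, 9.03 and 8.24 in CD133+ against 7.96, 8.92 and 7.99 in CD133-, a difference of 0.23. Both were higher in CD133+ in 3 of 3 repetitions.

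NDUFAF2, a paralogue of NDUFA12 that acts late in assembly, had a difference of 0.25, with 0.12 on its second probe set. NDUFAF5, which hydroxylates NDUFS7, and NDUFAF7, a methyltransferase, had 0.12 and 0.13, and NDUFAF5 was lower in CD133+ in repetition 2 (-0.15). NDUFAF6, an early assembly factor, measured 5.67, 6.12 and 5.51 in CD133+ against 5.70, 6.40 and 5.59 in CD133-. It was below 0 within each repetition, by small steps in repetitions 1 and 3 (-0.030 and -0.077) and by -0.27 in repetition 2, with a mean of -0.13 (95% interval -0.34 to 0.086 with the block). NDUFAF8 is not analysed here.

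The members also differed between repetitions. The means of the 3 repetitions spanned more than the absolute difference between fractions for 33 of 41 members. The median span was 0.33 for subunits and 0.71 for assembly factors, beside median absolute differences of 0.15 and 0.23. A span of 3 means of fewer arrays tends to be wider than a difference of 2 means, so this count cannot rank repetition against fraction. Relative to each gene's mean over 6 arrays, the subunit median was -0.031, 0.20 and -0.0050 in CD133+ and -0.083, 0.083 and -0.17 in CD133- repetitions 1, 2 and 3. For assembly factors it was 0.024, 0.33 and -0.16 in CD133+ and -0.12, 0.43 and -0.41 in CD133-. CD133- repetition 3 was the lowest array for 25 of 41 members, and CD133+ repetition 2 was the highest for 26. The shares of all genes to set beside the counts of 33, 25 and 26 were not computed. Without CD133- repetition 3 the subunit median was 0.086 and the assembly factor median 0.027, and without repetition 3 of both fractions, with the block, they were 0.10 and 0.14.

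A list of 12 proliferation genes moved with the same arrays. Its median deviation was 0.032, 0.39 and -0.24 in CD133+ and 0.0024, 0.39 and -0.52 in CD133- repetitions 1, 2 and 3, and its difference within repetitions was 0.087, -0.023 and 0.25. Summed on the linear scale, these genes ran from 6558 to 10177 in CD133+ and from 5526 to 10420 in CD133-. Of the list, 10 of 12 genes had a difference above 0 (median 0.091), 0 passed in either limma fit, and the largest difference was that of CDK1, a mitotic kinase, at 0.50, with 0.26, 0.098 and 1.14 within repetitions 1, 2 and 3. Without CD133- repetition 3 it was 0.010, and without CD133- repetition 2 it was 0.78. Within the same repetitions 1, 2 and 3 the subunit median was 0.071, 0.13 and 0.18 and the assembly factor median 0.25, 0.085 and 0.25. The part of proliferation in the differences of the members was not tested.

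**Figure D4:**
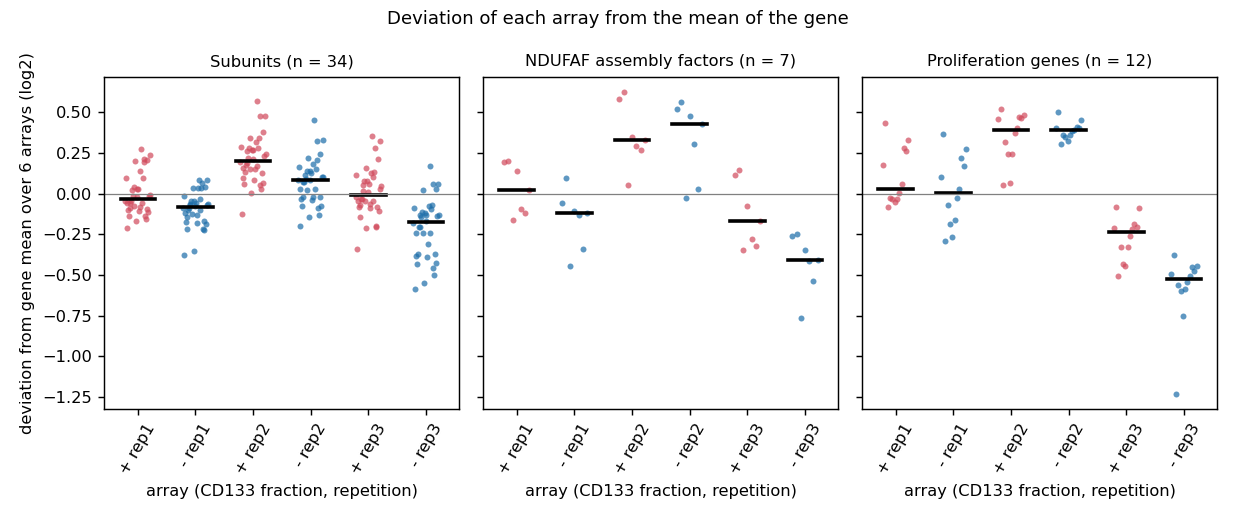
Deviation of each array from the mean of the gene over 6 arrays (vertical axis, log2) for the subunits, the NDUFAF assembly factors and the proliferation genes, with arrays on the horizontal axis ordered by repetition, CD133+ (red) left of CD133- (blue). Points are genes and bars are medians. All 3 panels are highest in repetition 2 and lowest in CD133- repetition 3, and within repetitions 1 and 3 the CD133+ medians lie above the CD133- medians.

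Genes that serve complex I without an NDUF name were described from the same fits. Other assembly factors were above 0 for 13 of 15 genes, with a median of 0.12, and 0 passed (limma, either fit). With the block 3 had an unadjusted p under 0.05 and were higher and 1 was lower, where 5.9% of all genes were higher and 5.73% lower. TMEM126B, which works with NDUFAF1 on the membrane arm, measured 6.62, 7.21 and 6.40 in CD133+ against 6.21, 6.89 and 5.84 in CD133-, a difference of 0.43 (SE 0.30 with group only; limma block adjusted p = 0.155). It was 0.19 without CD133+ repetition 2 or without CD133- repetition 3, and 0.71 without CD133- repetition 2. ECSIT, a partner in the same assembly complex, had the opposite direction, with 6.92, 7.12 and 7.35 in CD133+ against 7.31, 7.35 and 7.43 in CD133-, a difference of -0.23 that was below 0 in 3 of 3 repetitions. ACAD9, a further partner, had 0.17. ECSIT and ACAD9 were chosen after their values were seen.

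Mitochondrial iron-sulphur cluster assembly genes, which supply the clusters of the matrix arm, were above 0 for 11 of 12 measured, with a median of 0.061, and the largest difference was 0.21 for ISCA1. Regulators of respiratory chain genes were split, with 7 of 12 above 0 and a median of 0.041. ESRRA, a nuclear receptor that activates respiratory chain genes, had the largest difference of this list at 0.36, with 7.71, 8.11 and 8.01 in CD133+ against 7.73, 7.50 and 7.54 in CD133-. It was higher in repetitions 2 and 3 but not in repetition 1 (-0.016), with limma unadjusted p = 0.0350 with group only and 0.0335 with the block (adjusted p = 1 and 0.393). The coactivator gene PPARGC1A, chosen after its values were seen, was dim at 3.05 to 3.23 in all arrays. No gene of these 2 lists passed in either fit, where 1 and 1 of the regulators and 0 and 0 of the cluster genes had an unadjusted limma p under 0.05 with group only and with the block. Of all probe sets, 3.45% and 11.3% had one in these fits.

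COXFA4 and COXFA4L2, formerly NDUFA4 and NDUFA4L2 and now counted with complex IV, fall outside the NDUF symbols. COXFA4 measured 8.30, 8.42 and 8.57 in CD133+ against 8.41, 8.41 and 8.11 in CD133-, a difference of 0.12 made up of -0.11, 0.015 and 0.46 within repetitions 1, 2 and 3. COXFA4L2, a hypoxia-induced paralogue, had 5.75, 5.46 and 5.81 in CD133+ against 5.71, 5.55 and 6.01 in CD133-, a difference of -0.087. NDUFV1-DT, a non-coding transcript that starts beside NDUFV1 (chr11:67602880-67606706), was dim at 3.90 to 4.10, and its difference was -0.069. It was counted with neither the subunits nor the assembly factors. The subunits encoded by mitochondrial DNA are not analysed here.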

How the data were processed

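RNA of 3 CD133+ and 3 CD133- HCT116 arrays was labelled with a whole-transcript kit, per the labels' protocols. The authors deposited log2 signals made with RMA, per the submitters' processing notes; the log2 scale follows from their range (1.09 to 13.7, 0 missing). The version was not given in the sources used here. A U133 array is named in the design text, but the identifiers belong to a Human Gene ST array, whose annotation was used.

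Of 32321 rows, 4091 leading rows without annotation were left out as controls, leaving 28230 probe sets: 19158 with 1 symbol, 1388 with several and 7684 with none. Coordinates and promoters are from RefSeq (GRCh38.p14), to which all 41 members matched (38 with a promoter). Of the members, 3 had more than 1 probe set and 20 have a pseudogene in RefSeq. No filter was applied and 0 columns were unused.

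Differences were fitted with limma 3.58.1 in R 4.3.3, with group as the only term. Same-numbered arrays deviated together (r = 0.447 to 0.616, all above 0.1), and arrays of unlike number did not (-0.477 to -0.0965). Deviations from the mean of a fraction cancel within it, which ties these values together. With so few arrays they cannot establish that the numbers pair the arrays. A fit with repetition as a block is given beside. The fits were tested on simulated data. The number of arrays limits the precision.

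Members and lists were chosen with earlier results of these data known, and oxidative phosphorylation genes were already known to be higher. Named genes were PROM1, the core subunits, in each accessory arm the 4 of largest absolute difference and the lowest, all NDUFAF genes, NDUFAB1, COXFA4 and COXFA4L2, members past the threshold or with probe sets of opposite sign, and in other lists those that passed or else the largest. Other genes named were chosen after their values were seen.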

Additional observations from a re-analysis of the deposited data

How the results depend on the processing

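The count of members that passed was 0 under every alternative run, where 0 to 7 members beside the block fits had an unadjusted limma p under 0.05 (2 to 12 with a block). In the same fits 721 to 1571 of the probe sets tested did (2276 to 3202 with a block), the 7 members going with the 1571. Where only probe sets above the median mean were tested, 467 of them did. Members with a difference above 0 numbered 27 without CD133+ replicate 2 and 31 without CD133- replicate 3. The other settings gave 34 to 39. The subunit and assembly factor medians stayed above 0. Leaving out single arrays or repetitions gave 0.086 to 0.22 for subunits and 0.027 to 0.39 for assembly factors. The subunit median was 0.22 without CD133- replicate 2 and 0.086 without CD133- replicate 3. The assembly factor median was 0.078 without CD133+ replicate 2, and 0.39 and 0.027 without CD133- replicates 2 and 3. Fits without a single array are unbalanced in repetition. The other alternatives gave 0.13 to 0.15 and 0.18 to 0.24. A planned setting without NDUFA4 and NDUFA4L2 was not run, since their present symbols fall outside the rule. With them counted, as added after seeing the data, the subunit median was 0.15. Over all probe sets, the replicate block gave 84 that passed (43, 18 and 0 without replicates 1, 2 and 3), against 1 with group only. Single left-out arrays gave 0 to 2, and repeated quantile normalization, centred arrays and the leading rows kept gave 0 each (1102, 906 and 1036 at an unadjusted p under 0.05). The block changed no call on a member. Of named genes, the direction turned in some settings without an array or repetition for NDUFS1 (-0.079 to 0.28), NDUFS7 (-0.062 to 0.053), NDUFS8 (-0.069 to 0.041, and -0.054 to 0.016 without CD133+ arrays), NDUFV3 (-0.20 to 0.020), NDUFB11 (-0.13 to 0.031), NDUFAB1 (-0.036 to 0.27), NDUFAF1 (-0.014 to 0.58), NDUFAF4 (-0.030 to 0.54), NDUFAF5 (-0.12 to 0.39), NDUFAF6 (-0.30 to 0.12), COXFA4 (-0.048 to 0.24) and COXFA4L2 (-0.19 to 0.040). Without turning, other named genes also moved with an array or repetition left out: NDUFV1 (0.088 to 0.34), NDUFV2 (0.14 to 0.44), NDUFA5 (0.094 to 0.38), NDUFA8 (0.13 to 0.30), NDUFS4 (0.087 to 0.26), NDUFB3 (0.12 to 0.62), NDUFB7 (0.051 to 0.36), NDUFAF2 (0.14 to 0.47), NDUFAF3 (0.16 to 0.40), NDUFAF7 (0.027 to 0.21), ESRRA (0.23 to 0.54) and ISCA1 (0.10 to 0.31). Within the block fits, NDUFS7 was 0.033 without replicate 2, and without replicate 3 NDUFS8 was 0.041 and COXFA4 -0.048. NDUFS7 was 0.0022 with centred arrays. The cause of these changes was not tested. PROM1 passed with the block (adjusted p = 0.0120), and not with group only (0.142).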
